A study of Mus musculus with 18 samples.

Results

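Foxa1, Foxa2, Lmx1a, Lmx1b, Corin, Msx1, Nr4a2 and Pitx3, factors of the floor plate and of the midbrain dopaminergic lineage that grows out of it, were followed in mouse ESD3 embryonic stem cells with and without knockdown of HPRT. They were chosen by gene symbol from what is known of the lineage, with earlier results of these data already known. They are 8 of the 30869 genes on the Illumina MouseWG-6 v2 array. The members have 13 of its 45281 probes. WT control cells carried an shRNA against luciferase and HPRT knockdown cells an shRNA against HPRT, the purine salvage enzyme. Both were delivered by a viral vector and selected with puromycin, in the ESD3 line of strain 129s2/SvPas grown on mouse embryo fibroblast feeders. Cells were profiled as undifferentiated ES cells, as spherical neural masses (SNM, expanded aggregates of neural precursors) and at the final neuronal stage. The differentiation medium held Shh, FGF8 and ascorbic acid in both cell types. Each of the 6 groups had 3 arrays, all hybridised with RNA of 1 pool of replicate cultures, so every SD and test here covers array error and not the spread between cultures. The groups are mixed cell populations, in which more cells of a type and more RNA per cell cannot be told apart.

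The floor plate is the ventral midline of the neural tube and a source of Shh. In the midbrain its cells turn into dopaminergic progenitors, which makes this the one stretch of floor plate that gives rise to neurons of that kind. Foxa1 and Foxa2 are forkhead factors that Shh signalling induces there and that open chromatin for other factors. Lmx1a and Lmx1b are LIM homeodomain factors of the dopaminergic progenitors, and Msx1, a homeodomain factor, acts downstream of Lmx1a. Corin is a membrane serine protease used to sort floor plate cells. Nr4a2 (Nurr1), an orphan nuclear receptor, and Pitx3, a homeodomain factor, come on in the postmitotic neurons and act with each other on genes of dopamine synthesis. Several members are not particular to this place: Foxa1 and Foxa2 are also endoderm factors, Msx1 marks the roof plate, and Foxa1, Foxa2, Lmx1a and Corin are also made in the posterior hypothalamic floor.

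The targeted gene was lower in every knockdown group. The log2 signal of Hprt1, as the array names the gene, was 12.04 ± 0.03 (SD, n = 3 arrays) in control and 7.95 ± 0.19 in knockdown ES cells, and 11.05 ± 0.03 against 6.60 ± 0.04 at the neuronal stage. At the SNM stage the gap was smaller, with 11.20 ± 0.06 in control and 9.44 ± 0.09 in knockdown cells, a difference of -1.76. The arrays detected between 18827 and 22202 probes each, a probe being detected where its p-value against the array's negative-control beads was under 0.05. Arrays of a group correlated at between 0.992 and 0.997.

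The promoters of 4 members that rose together in knockdown cells are shown, as the 150 bases before the annotated start, 5′ to 3′ on the strand of the gene. They were taken from RefSeq, build GRCm38.p6, which gives a start for all 8 members and 3 of them for Foxa2. Capitals mark the forkhead motif.
Foxa1, chr12:57546112-57546261, minus strand: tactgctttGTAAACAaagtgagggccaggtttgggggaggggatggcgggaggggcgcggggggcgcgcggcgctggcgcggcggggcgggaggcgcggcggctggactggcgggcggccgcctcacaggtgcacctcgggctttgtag
Lmx1a, chr1:167689408-167689557, plus strand: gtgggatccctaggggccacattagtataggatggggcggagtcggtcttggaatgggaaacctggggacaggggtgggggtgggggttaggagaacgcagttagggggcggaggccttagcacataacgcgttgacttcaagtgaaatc
Corin, chr5:72504541-72504690, minus strand: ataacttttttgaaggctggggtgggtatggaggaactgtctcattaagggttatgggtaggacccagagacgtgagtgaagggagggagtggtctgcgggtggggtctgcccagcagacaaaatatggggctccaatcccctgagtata
Msx1, chr5:37824586-37824735, minus strand: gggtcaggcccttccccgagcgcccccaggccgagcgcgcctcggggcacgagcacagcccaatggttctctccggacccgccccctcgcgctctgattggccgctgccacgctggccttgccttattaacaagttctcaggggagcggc

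The windows were searched over 250 bases before the start, on both strands, for GACCACCC (the core bound by Gli factors), TGTTTAC (bound by forkhead factors) and TAATTA (bound by LIM homeodomain factors). Among the 10 start sites of the members there was a single match. The Foxa1 window holds the forkhead letters on the opposite strand, as GTAAACA, from 141 to 135 bases before the start. The forkhead motif stands in 3.17% of all 32851 promoters of this length, the Gli core in 0.703% and TAATTA in 4.84%. The windows differ in composition: Foxa1 has 21 CpG dinucleotides in 250 bases, Msx1 20, Lmx1a 9 and Corin 2, where the median promoter has 6. These are descriptions of letters in a window and say nothing of binding.

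At the ES stage most members were at background. Foxa1, Lmx1a and Corin were detected on none of the 3 control arrays, Nr4a2 likewise, and Pitx3 on none of the 18 arrays of any stage. Foxa2 was the exception, with log2 signals of 6.29, 5.96 and 6.23 on the control arrays and 5.69, 5.93 and 5.99 on the knockdown arrays. The arrays of control and knockdown cells overlapped, and the difference of -0.29 did not pass (adjusted p = 0.161, limma). Msx1 gave 5.11, 5.01 and 5.06 in control cells, detected on all 3 arrays, and 4.81, 4.59 and 5.29 in knockdown cells, detected on 1. Its difference was -0.17, with an adjusted p of 0.471 in limma. Of the 8 members only these 2 could be tested, and neither was called, a call being an adjusted p under 0.05 with a change of at least 1.5-fold. Over all genes tested at this stage 1.81% were called in either direction.

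**Figure D1:**
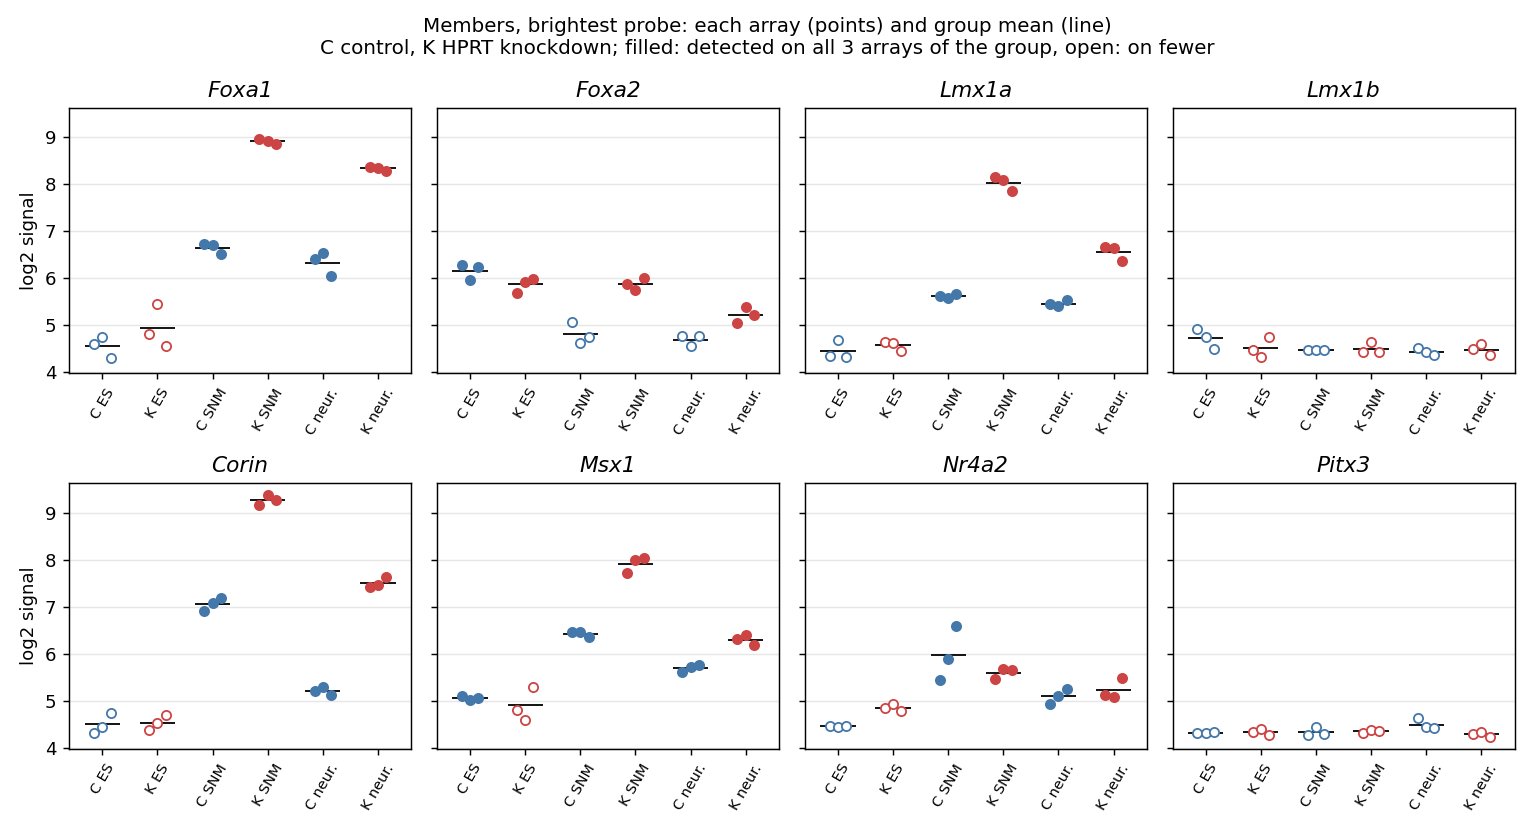
Log2 signal of the brightest probe of each member on every array, with the group mean as a line; filled points mark groups in which all 3 arrays detected the probe. Foxa1, Lmx1a, Corin and Msx1 are highest on the knockdown arrays of the SNM stage, Foxa2 is highest at the ES stage, and Lmx1b and Pitx3 stay between 4.23 and 4.92 throughout.

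At the SNM stage 5 of the 6 tested members were higher in knockdown cells and none was lower, against 12.0% of all tested genes called higher. The median log2 change was 1.85 over the 6 tested members and -0.02 over all genes tested. Foxa1, Foxa2, Lmx1a, Corin and Msx1 made up the 5, and for each of them all 3 knockdown arrays lay above all 3 control arrays. Foxa2, detected on 2 of 3 control arrays, was tested only because the knockdown arrays detected it. It could hardly have been called lower, so for Foxa2 the count is no test of direction. Nr4a2 was the tested member that was not called, and Lmx1b and Pitx3 were not detected.

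Of the forkhead pair, Foxa1 had the larger difference. It gave log2 signals of 6.72, 6.71 and 6.52 on the control arrays and 8.97, 8.93 and 8.86 on the knockdown arrays. The difference was 2.27 (SE 0.18), or 4.82-fold, with an adjusted p of 3.16e-08 in limma. The arrays of each cell type lay close together, and the groups were far apart. Foxa2 gave 5.07, 4.63 and 4.75 in control cells, where 2 of 3 arrays detected it, and 5.87, 5.74 and 6.0 in knockdown cells. That is a difference of 1.05 (SE 0.13), or 2.07-fold (adjusted p = 3.77e-06, limma). The knockdown level of Foxa2 was no higher than in ES cells of either type: it overlapped the ES arrays, and the control SNM level was the one that stood lower. Foxa2 was under 1.5-fold where the background was left uncorrected (0.49 and 0.56), with an offset of 50 (0.57) and as the mean of its probes (0.50). Its other probe was detected on no array.

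Of the LIM homeodomain pair only Lmx1a was detected at this stage. Lmx1a gave 5.63, 5.57 and 5.67 on the control arrays and 8.16, 8.09 and 7.87 on the knockdown arrays, a difference of 2.42 (SE 0.10), or 5.34-fold, with an adjusted p of 3.33e-11 in limma. Its knockdown arrays shared no value with those of any other group. A second Lmx1a probe, detected on all 3 knockdown arrays and no control array of this stage, was at least 1.53-fold higher there (adjusted p = 2.12e-07, limma). That probe was tested only because the knockdown arrays detected it and could hardly have been called lower, so it is no separate test of direction. The third probe was detected on 2 knockdown arrays and was not tested. With the mean of the 3 probes the Lmx1a change was 1.33, still called. Lmx1b, which overlaps Lmx1a in role, was not detected on any of the 6 arrays of this stage by either of its probes. Its brighter probe gave 4.48, 4.47 and 4.47 in control and 4.42, 4.64 and 4.44 in knockdown cells, levels that overlap. At background these probes cannot show whether Lmx1b followed Lmx1a.

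Corin, the surface protease, gave 6.90, 7.09 and 7.18 on the control arrays and 9.17, 9.38 and 9.28 on the knockdown arrays. The difference was 2.22 (SE 0.11), or 4.67-fold (adjusted p = 1.8e-10, limma), and the groups did not come within a log2 unit of each other. Msx1 gave 6.47, 6.47 and 6.36 in control cells and 7.71, 7.99 and 8.05 in knockdown cells. Its difference was 1.48 (SE 0.13), or 2.80-fold (adjusted p = 1.34e-07, limma), and again the groups did not overlap. The other Msx1 probe was detected on no array, and the mean of both probes gave 0.72.

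Of the factors of the postmitotic neuron, Nr4a2 was not called and Pitx3 was not detected. Nr4a2 gave 5.44, 5.88 and 6.60 on the control arrays and 5.46, 5.67 and 5.66 on the knockdown arrays. The control arrays spread widely and their range held all 3 knockdown values. The difference of -0.38 (SE 0.20, 95% interval from -0.80 to 0.04) did not pass in limma, with an adjusted p of 0.124. Without control array 1 it was -0.64 and was called (adjusted p = 0.0052, limma), so that the outcome for Nr4a2 rests on that array. Pitx3 stood between 4.27 and 4.44 on all 6 arrays, below detection, which cannot show whether it changed.

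**Figure D2:**
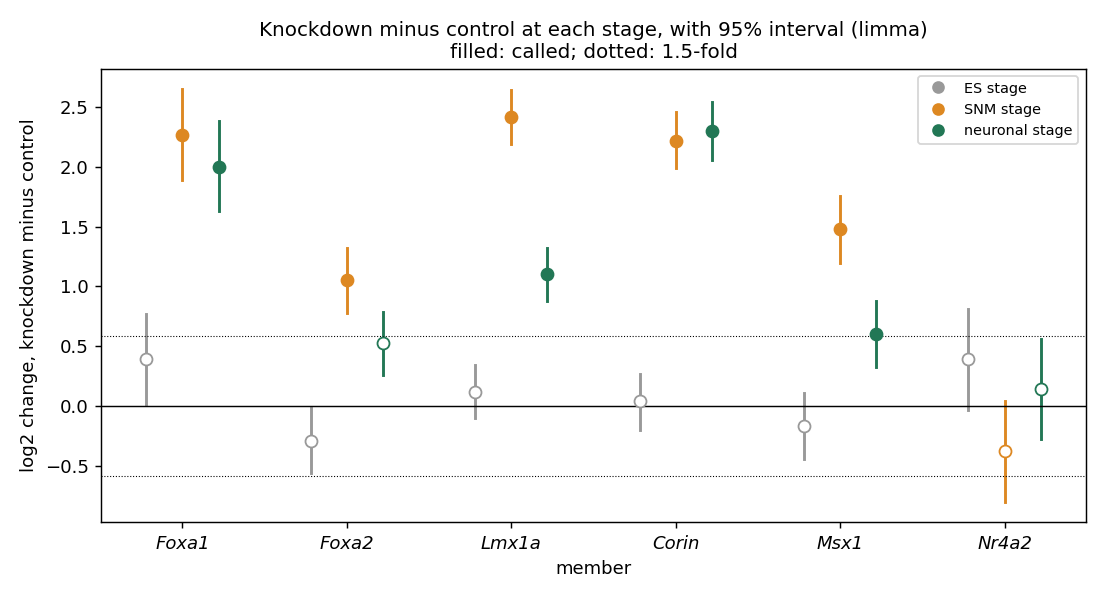
Difference in log2 signal between knockdown and control cells for the 6 members detected at some stage, with its 95% interval from limma; filled points were called and dotted lines mark 1.5-fold. Foxa1 and Corin have changes of at least 2.00 at both later stages, Lmx1a and Msx1 have the larger change at the SNM stage, and the intervals of Nr4a2 hold 0 throughout.

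At the final neuronal stage 4 of the 6 tested members were higher in knockdown cells and none was lower, against 14.3% of all tested genes called higher. The 4 were Foxa1, Lmx1a, Corin and Msx1. Foxa2 was again tested only because the knockdown arrays detected it, and could hardly have been called lower. The median log2 change was 0.85 over the tested members and 0.01 over all genes. Foxa1 gave 6.41, 6.54 and 6.05 on the control and 8.37, 8.35 and 8.29 on the knockdown arrays, a difference of 2.00 (SE 0.18) with an adjusted p of 6.71e-08 in limma. Corin gave 5.20, 5.30 and 5.13 against 7.43, 7.46 and 7.64, a difference of 2.30 (SE 0.11) with an adjusted p of 3.35e-11 in limma. Both genes kept groups that were more than 1 log2 unit apart.

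Lmx1a and Msx1 differed less at this stage. Lmx1a gave 5.45, 5.40 and 5.54 in control and 6.66, 6.65 and 6.37 in knockdown cells, a difference of 1.10 (SE 0.10, adjusted p = 1.65e-07, limma). Msx1 gave 5.62, 5.72 and 5.75 against 6.32, 6.39 and 6.19, a difference of 0.60 (SE 0.13, adjusted p = 0.000875, limma), only just over 1.5-fold. Its arrays did not overlap, yet the call was lost without control array 1 (0.57) or knockdown array 2 (0.56). As the mean of all probes, Lmx1a changed by 0.43 and Msx1 by 0.31, both under 1.5-fold.

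Foxa2 gave 4.76, 4.55 and 4.76 in control cells, where 2 of 3 arrays detected it, and 5.05, 5.38 and 5.22 in knockdown cells. The difference of 0.53 had an adjusted p of 0.00191 in limma but was 1.44-fold and so was not called. Without knockdown array 1 it was 0.61 and was called. Nr4a2 gave 4.93, 5.09 and 5.25 against 5.12, 5.08 and 5.48, groups that overlap, with a difference of 0.14 (95% interval from -0.28 to 0.56) and an adjusted p of 0.579 in limma. Pitx3 and Lmx1b were again detected on no array.

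Whether the knockdown effect itself differed between stages was tested in the same model. From the ES to the SNM stage it changed for all 6 tested members, against 22.4% of all tested genes, and rose for 5 of them. The rise was 1.88 for Foxa1 (adjusted p = 2.28e-05), 1.34 for Foxa2 (2.24e-05), 2.29 for Lmx1a (9.46e-09), 2.18 for Corin (3.18e-08) and 1.65 for Msx1 (4.1e-06), all in limma. Lmx1a and Corin were at background in ES cells of both types, so for them this contrast repeats the difference at the SNM stage. For Foxa1 the ES levels were at background on 5 of 6 arrays (means 4.55 in control and 4.94 in knockdown cells). Its value thus also rests mostly on the SNM stage. The effect on Nr4a2 fell by 0.77 (adjusted p = 0.0377, limma), with ES levels at background on 5 of 6 arrays. That call was lost under 7 of 9 other settings, with values from -0.77 to -0.32, and on leaving out any of 10 of the 12 arrays; it held without control SNM array 1 or 2.

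From the SNM to the neuronal stage the knockdown effect changed for 2 of 6 tested members, Lmx1a and Msx1, against 29.3% of all tested genes, and for both it became smaller. It fell by 1.32 for Lmx1a (adjusted p = 1.9e-06, limma) and by 0.88 for Msx1 (adjusted p = 0.001, limma). For Foxa2 the value was -0.52 (adjusted p = 0.0238, limma), under 1.5-fold. Without control SNM array 1 Foxa2 (-0.65) and Nr4a2 (0.78) were called as well, and Foxa2 was also called without knockdown SNM array 2 (-0.59), control neuronal array 2 (-0.59) or knockdown neuronal array 2 (-0.61). For Foxa1 it was -0.27, with a 95% interval from -0.80 to 0.27, and for Corin 0.08, from -0.26 to 0.41, neither called. The sign for Corin turned with the processing, to -0.46 with quantile normalization and no background correction, a value under 1.5-fold and so not called.

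Along differentiation 4 of the 8 members went from undetected to detected in control cells. From ES to SNM, 5 of 6 tested members rose, against 25.2% of all tested genes, and 1 fell, against 24.4%. Foxa1, Lmx1a, Corin and Nr4a2 were tested only because the SNM arrays detected them. They could hardly have been called lower, so the count is no test of direction. Corin, undetected in ES cells, was at least 4.55-fold higher at the SNM stage, Foxa1 at least 3.44-fold, Nr4a2 at least 2.15-fold and Lmx1a at least 1.69-fold, each bound set by the lowest detected signal of the ES arrays and holding for this normalization. With 75th percentile scaling and no background correction the fitted log2 changes of Lmx1a and Nr4a2 were 0.30 and 0.49, under 1.5-fold, against 1.17 and 1.52 here. Lmx1a was also under 1.5-fold with quantile normalization and no background correction (0.57), with an offset of 50 (0.57) and as the mean of its probes (0.39). Msx1, already detected, rose by 1.37, but under the other settings the rise went as low as 0.55, under 1.5-fold. Foxa2 was the member that fell, by 1.34 (adjusted p = 6.85e-08, limma), from a level detected on all 3 ES arrays to one detected on 2 of 3.

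In knockdown cells 5 of 6 tested members rose from ES to SNM, against 28.1% of all tested genes, and none fell. The 5 were tested only because the SNM arrays detected them. They could hardly have been called lower, so this count too is no test of direction. Corin was at least 20.3-fold higher and Lmx1a at least 8.61-fold. Foxa1, Msx1 and Nr4a2 were each detected on 1 of 3 knockdown ES arrays, so that their ES levels are mostly background and the sizes of their rises depend on it. The fitted rises were 3.97 for Foxa1, 3.02 for Msx1 and 0.75 for Nr4a2 (adjusted p = 0.00253 for Nr4a2, limma). That of Nr4a2 was under 1.5-fold with an offset of 50 (0.39) and where the background was left uncorrected, at 0.33 with quantile normalization and 0.17 with 75th percentile scaling. Foxa2 had a difference of 0.00 (95% interval from -0.27 to 0.27, adjusted p = 0.993, limma). The fall of Foxa2 seen in control cells was thus not measured in knockdown cells, and the contrast between the 2 was the 1.34 given above.

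From SNM to the final stage members came down. In control cells 3 of 5 tested members fell, against 14.8% of all tested genes: Corin by 1.84, Nr4a2 by 0.88 and Msx1 by 0.74. The fall of Nr4a2 rested on control SNM array 3, without which it was -0.57 and not called. In knockdown cells 4 of 6 fell, against 15.8% of all tested genes: Corin by 1.77, Msx1 by 1.62, Lmx1a by 1.48 and Foxa2 by 0.65. Foxa1 changed by -0.58 (adjusted p = 0.00982, limma), just under 1.5-fold, and Nr4a2 by -0.37 (adjusted p = 0.117, limma). Without knockdown SNM array 3, knockdown neuronal array 1 or knockdown neuronal array 2 the fall of Foxa1 was called (-0.61, -0.60 and -0.59). The fall of Foxa2 was -0.57 without knockdown neuronal array 1 and was then not called.

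Put in order, the groups ran alike for Foxa1, Lmx1a and Corin: both ES groups lowest, then control neuronal, control SNM, knockdown neuronal and knockdown SNM cells. Among neighbouring groups the arrays overlapped between the ES groups for all of Foxa1, Lmx1a and Corin, and for Foxa1 also between the control neuronal and control SNM groups. For Msx1 the knockdown neuronal and control SNM groups changed places and overlapped. Foxa2 ran in another order, with both control groups of the later stages lowest and control ES cells highest. Over the 18 arrays, Foxa1, Lmx1a, Corin and Msx1 correlated with each other at Pearson's r between 0.881 and 0.965, and Foxa2 with each of them at between -0.257 and -0.0881. These are descriptions over arrays of 6 RNA pools that share their cell types and stages.

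Other genes varied over the 18 arrays much as the members did. Among 9206 genes the 3 with the highest r to Foxa1 were Vtn (0.988), Ptgds (0.987) and Itgbl1 (0.986). Those of Lmx1a included Bmp3 (0.993) and Ngef (0.983), and those of Corin were Clk4 (0.988), T or brachyury (0.985) and Rab38 (0.983). Msx1 was matched by Otx1 (0.979), Dlx1 (0.978) and LOC100047738 (0.976), and Foxa2 by Dsg2 (0.955), Hdc (0.942) and 1700094D03Rik (0.941). Nr4a2 had LOC100045869 (0.964), 6330415B21Rik (0.945) and Dmrta1 (0.936).

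The genes around the members moved in part with them. Of 15 tested genes of floor plate and hedgehog signalling, 9 were higher in knockdown SNM cells and 2 lower, with a median log2 change of 0.86. Over all genes tested at that stage 12.0% were called higher, and 1288 of 14705 lower. Shh, the ligand, rose by 5.15, the midline guidance cue Slit2 by 2.21, the homeobox gene Nkx6-2 by 1.80 and Ptch1, the Shh receptor and a target of the pathway, by 1.23 (highest adjusted p of these 1.06e-07, limma). Gli1, another target of the pathway, stood at 4.39 in control and 4.34 in knockdown SNM cells. It was detected on none of the arrays of any stage, so whether it changed could not be measured. The 2 genes that fell were Gli3 (-0.78) and Gli2 (-0.62), transcription factors of the pathway, named after their values were seen. At the neuronal stage 5 of 15 were higher and 4 lower, against 14.3% of all tested genes called higher and 2117 of 14749 lower. Nkx2-2, also a factor of the oligodendrocyte lineage, led with a rise of 5.32. Shh stood at 6.3 in control and 8.91 in knockdown neuronal cells, Nkx6-2 at 6.26 and 8.26, and Slit2 at 7.42 and 8.97. Gli3 stood at 10.02 and 7.91 and Gli2 at 8.93 and 7.31. Cdon, at 8.11 and 6.11, and Hhip, at 6.41 and 5.67, also stood lower in knockdown cells and were named after their values were seen. The sums that follow thus hold changes in both directions. The summed signal of the list was 4230 to 4450 in control and 7200 to 7540 in knockdown neuronal cells. Without Nkx2-2, a sum added after seeing the data, it was 4160 to 4390 and 4670 to 4860, and at the SNM stage 3900 to 3960 and 7130 to 7640.

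The partners of the members in the midbrain went both ways. Of 14 tested genes of midbrain patterning and of the dopaminergic neuron, 5 were higher and 3 lower in knockdown SNM cells, with a median of 0.22. The shares over all tested genes were 12.0% higher and 1288 of 14705 lower. Rspo2, a Wnt agonist, rose by 1.31, and Aldh1a1, an enzyme of retinoid synthesis and of a class of dopaminergic neurons, by 1.22. The midbrain factors En2 and En1 fell by 2.80 and 1.00 (adjusted p = 1.03e-14 and 1.1e-08, limma). Otx2, which sets forebrain and midbrain apart from hindbrain, stood at 10.22 in control and 10.09 in knockdown SNM cells.

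The defining genes of the finished neuron were at or near background. Th, the enzyme that limits the rate of dopamine synthesis, had log2 signals of 4.58 in control and 4.54 in knockdown cells at the neuronal stage, and was detected on 1 of the 6 arrays. The dopamine transporter gene Slc6a3 stood at 4.40 and 4.77 and was also detected on 1 of 6. Snap25 and Nefl, which most neurons make, were likewise detected on none of these 6 arrays, so a probe at background does not show that its transcript is absent. At that stage 3 of 13 tested genes of the list were higher in knockdown cells and 4 lower. The shares over all tested genes were 14.3% higher and 2117 of 14749 lower. Ddc, the decarboxylase that serotonergic neurons and other cells also use, rose by 1.71, and Dlk1 fell by 2.66.

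**Figure D3:**
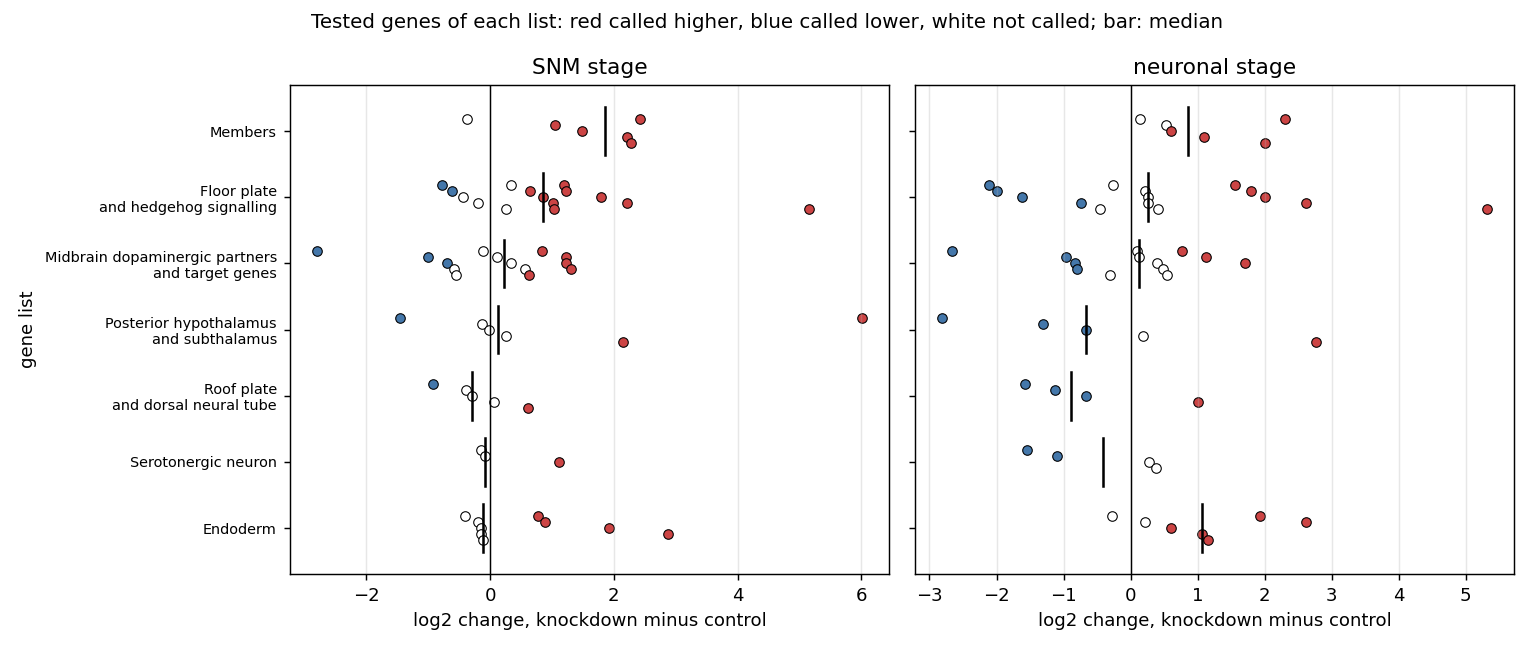
Log2 change between knockdown and control cells of every tested gene of the members and of 6 related lists, with the SNM stage on the left and the neuronal stage on the right; red was called higher, blue called lower, white not called, and the bar is the median. At the SNM stage the members and the floor plate genes lie mostly to the right of 0, with medians of 1.85 and 0.86, and the midbrain genes on both sides.

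Lists for other places that make the same factors were counted beside them. Over all genes tested at the SNM stage 12.0% were called higher and 1288 of 14705 lower. For the neuronal stage these shares were 14.3% and 2117 of 14749. Of 6 tested genes of the posterior hypothalamus and subthalamus, 2 were higher and 1 lower in knockdown SNM cells, among them Nkx2-1, which rose by 6.01, and Dbx1, which fell by 1.46. At the neuronal stage Nkx2-1 was 2.76 higher. Of 9 tested endoderm genes 4 were higher in knockdown SNM cells and none lower, among them Ttr (2.87) and Gata6 (1.92), both also made outside the endoderm. Sox17, Hnf4a and Foxa3, which define the lineage, were detected in both SNM groups, at 5.98 and 5.83, 5.05 and 4.93, and 5.56 and 5.41 in control and knockdown cells. At the neuronal stage 5 of 7 tested endoderm genes were higher in knockdown cells and none lower, with a median log2 change of 1.07. There Sox17 stood at 5.24 in control and 6.31 in knockdown cells, Hnf4a at 5.12 and 5.35, and Foxa3 at 5.07 and 4.79. The part of the endoderm genes in the levels of Foxa1 and Foxa2 was not tested. Of the roof plate list, where Msx1 is also made, 1 of 5 tested genes was higher and 1 lower at the SNM stage, and Msx2 stood at 4.33 and 4.38. Of the serotonergic list, another progeny of Foxa2 cells, 1 of 3 was higher, Tph2 by 1.12, while Fev stood at 4.39 and 4.45, undetected.

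The 2 cell types also differed in their other tissues, most at the neuronal stage. The counts below stand beside the shares over all tested genes given above for each stage. Of the skeletal muscle genes 8 of 11 tested were higher in knockdown SNM cells, and 13 of 14 were lower at the neuronal stage, with a median there of -6.47. Of the oligodendrocyte genes 6 of 9 were lower at the SNM stage and all 10 were higher at the neuronal stage, with a median of 5.74. The summed signal of the 10 oligodendrocyte genes ranged over the 3 arrays from 3430 to 3620 in control and from 69300 to 74500 in knockdown neuronal cells, and that of the 14 muscle genes from 76200 to 77300 and from 456 to 575. The 10 neuron genes summed to between 10900 and 11700 and between 5570 and 6420. Of these, 5 of 8 tested were lower in knockdown cells and none higher. The part of these differences in the levels of Foxa1, Lmx1a, Corin and Msx1 at the neuronal stage was not tested.

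**Figure D4:**
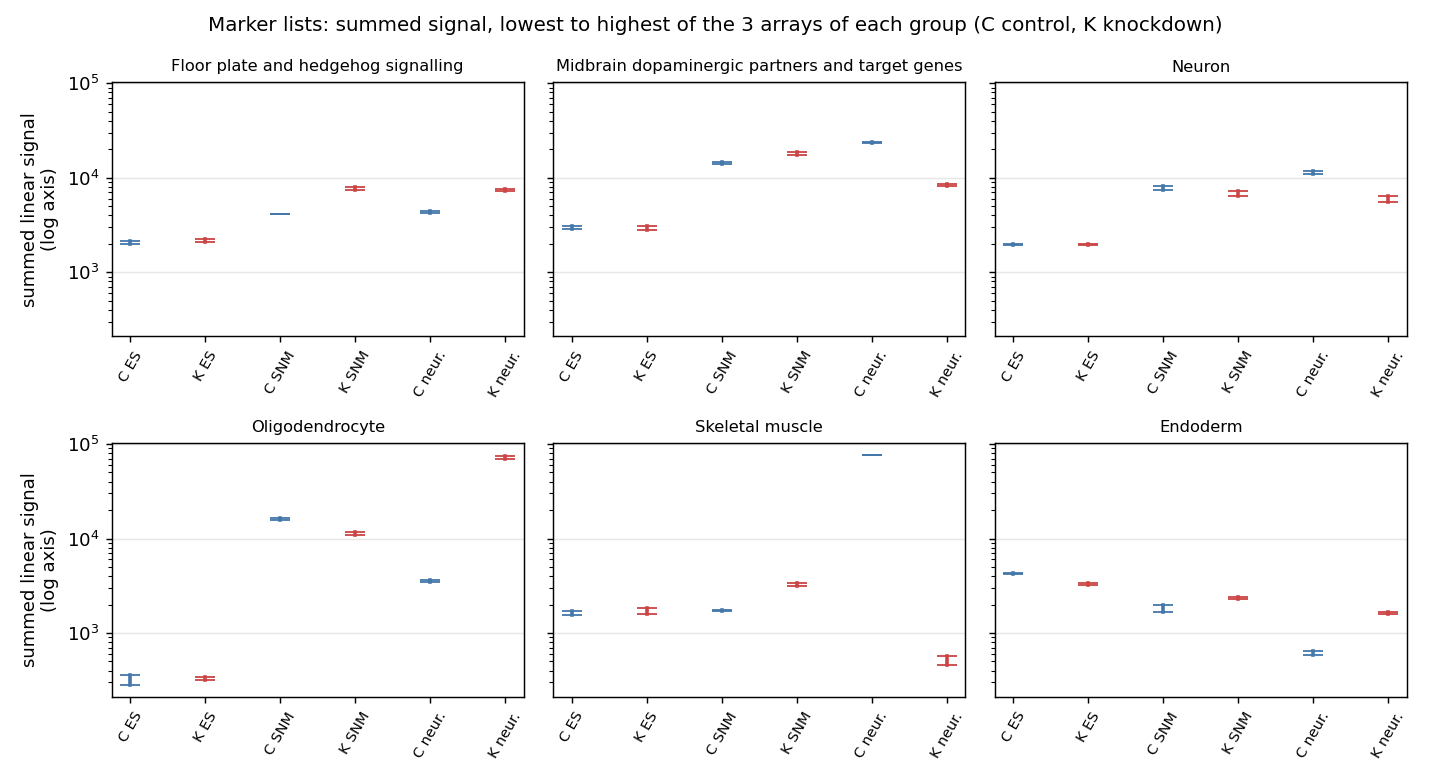
Summed linear signal of the genes of 6 marker lists, from the lowest to the highest of the 3 arrays of each group, on a log axis. The floor plate list is higher in knockdown than in control SNM cells (7410 to 7930 against 4100 to 4130). At the neuronal stage most of the gap in its sum is Nkx2-2, while other genes of the list moved in both directions. The oligodendrocyte and muscle lists differ most at the neuronal stage and in opposite directions.

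The remaining lists add the following, to be read beside the same shares over all tested genes. None of the 7 lens genes was tested. Of the immediate-early genes and the other NR4A receptors, which share induction by stimulation with Nr4a2, 1 of 5 tested was lower at the SNM stage and 2 of 4 were higher at the neuronal stage, Fos by 3.59 and Junb by 1.07. Of 8 tested pluripotency genes 5 were lower in knockdown SNM cells, and 7 were lower in the neuronal group. Of 10 fibroblast and mesenchyme genes 3 were higher at the SNM stage and 8 lower at the neuronal stage. Of 4 tested heart muscle genes 2 were higher at the SNM stage and 3 lower at the neuronal stage.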

How the data were processed

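The authors deposited the average bead signal intensity of each probe on 18 Illumina MouseWG-6 v2 arrays, with no background subtraction or normalization, and a detection p-value deposited beside each signal. A second table gave the probe annotation; its 72 columns of per-sample values could not be matched to samples and were not used. The study's methods name Illumina's BeadArray software for image quantitation, and GeneSpring GX with filters on signal and on variation between replicates for the authors' own analysis; those filters were not applied here. A genome build for the array is not given in the sources used here.

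Background correction from the deposited p-values, quantile normalization and the log2 step, with 16 as offset, used limma's neqc function (limma 3.58.1, R 4.3.3). Fold changes are on this offset scale, which understates those of dim probes. One limma model of the 6 groups gave all contrasts, two-sided, with Benjamini-Hochberg adjustment over all tested probes. A probe was tested where all 3 arrays of a compared group detected it (p-value under 0.05) and called at an adjusted p under 0.05 and 1.5-fold. Exact permutation of 3 against 3 arrays cannot go below p = 0.1. The brightest probe stands for a gene. The model was tested on simulated data.

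The members, the 14 other gene lists and the rules were chosen with earlier results of these data known. Members were named throughout, other genes as at most 4 of a list with the largest called changes and those that define it, and genes of like pattern as the 3 with the highest correlation; 2 genes these rules name are not reported here. Of 164 listed genes 157 were on the array. Array numbers come from the titles. They paired arrays at the SNM stage alone (correlations of deviations 0.518, 0.107 and 0.507) and were run as a block. The number of arrays, 3 a group, limits the precision. Probe sequences and proteins were not used here.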

Additional observations from a re-analysis of the deposited data

Results flagged for a closer look

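The knockdown effect on 6 members differed between stages in a test of the difference itself, and each is given as a value. From the ES to the SNM stage it rose by 1.88 on the log2 scale for Foxa1, 1.34 for Foxa2, 2.29 for Lmx1a, 2.18 for Corin and 1.65 for Msx1, and for Nr4a2 the difference was -0.77. From the SNM to the neuronal stage it was -1.32 for Lmx1a and -0.88 for Msx1. In ES cells Lmx1a and Corin were undetected in both cell types, and Foxa1 and Nr4a2 were detected on 1 of 6 arrays. Knockdown and control SNM arrays also differed in Hprt1 by less (-1.76) than at the ES stage (-4.09) or the neuronal stage (-4.45); whether the size of the knockdown bears on these differences was not tested.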

How the results depend on the processing

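No member called in limma or under an alternative changed direction between them. Values that were not called did: the change of the effect on Corin after the SNM stage ran from -0.46 to 0.11 and the change of Foxa2 from ES to SNM in knockdown cells from -0.05 to 0.45, leaving out no array. Under settings other than leaving out an array, 468 values kept their side of the threshold, 46 lost it and 1 gained it. Calls of Foxa1 and Corin were the same under all settings other than leaving out an array, and 5 calls of Lmx1a, 14 of Msx1, 9 of Foxa2 and 18 of Nr4a2 were lost. At the SNM stage 4 of the 5 members stayed called without background correction, with an offset of 50 and with the mean of all probes, and Foxa2 was the one lost. At the neuronal stage the mean over all probes left 2 of 4 called. From ES to SNM in control cells, 75th percentile scaling left 3 of 6. For the fall in control cells after the SNM stage 1 of 3, Corin, was left by quantile normalization without background correction, by 75th percentile scaling, by an offset of 50 and by a minimum of 2-fold. For the change of the effect from SNM to neuronal, a minimum of 2-fold left 1 of 2, Lmx1a, as did the mean over all probes. Leaving out 1 array gave between 5 and 6 members called in SNM cells, 3 and 5 in neuronal cells, 2 and 3 for the control fall, 4 and 5 for the knockdown fall, 5 and 6 for the first change of the effect and 2 and 4 for the second. The methods' t-test called the same members in the 7 comparisons it was run for, unadjusted and after Benjamini-Hochberg adjustment, except for the fall of Nr4a2 in control cells, which it did not call. With the array number as a replicate block 5 members were called among SNM arrays and 4 among neuronal arrays, and no call of a member changed. The count of all genes called moved by over 1.5 times: with a minimum of 2-fold, from 238 to 19 between ES cells, from 3050 to 999 between SNM cells and from 4231 to 1971 between neuronal cells. Without scaling between arrays the median of all genes from ES to SNM shifted to 0.21 in control and 0.14 in knockdown cells, and with 75th percentile scaling to -0.15 and -0.20. Genes called higher made up 68.7% of those called without scaling against 50.8% in control cells, 60.8% against 48.7% in knockdown cells, and 59.2% against 29.4% between the cell types at the ES stage. Dim probes such as those of Foxa2 and Nr4a2 stand close to background, where the offset and the correction set much of the measured fold; the cause of the lost calls was not tested further.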
